A study of Bos taurus with 12 samples.

Results

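The genes described here encode ion channels, receptors that are themselves channels, and the accessory subunits of channels. Members were the rows of the authors' list of differentially methylated CpG sites whose promoter, exon or intron annotation held a gene symbol that begins with KCN, CACN, RYR, GRIA, GRID, GRIK, GRIN, CHRN, GABR, CLCN or HCN, or with SCN, TRPA, TRPC, TRPM, TRPV or ANO followed by a digit. This gave 86 of the 14094 listed sites, in 46 genes, of 838705 tested CpG positions. A symbol was the only ground for entry, and 1 of the 46 genes, GRID2IP, encodes a protein that interacts with a glutamate receptor and is not itself a channel. The other 45 genes belong to channel families or encode accessory subunits of channels, with CLCN3 a transporter within the chloride channel family. Because every member is on a list chosen by the difference between the ages, that difference is described below and was not tested again as evidence.

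The study collected primary dermal fibroblasts from 6 Holstein heifers at 5 months of age and again at 16 months, which gave 6 young and 6 old cultures paired by animal. All 12 cultures were at passage 6 and received no treatment, and per the study's methods the animals were chosen because their fibroblasts gave a middling cytokine response to bacterial lipopolysaccharide. DNA methylation was measured by reduced representation bisulfite sequencing (RRBS), in which DNA is cut by restriction enzymes (MspI per the labels, with TaqαI also named in the methods), converted with bisulfite and sequenced. Each animal gave 1 culture at each age, so the age of the animal and anything else that differed between the 2 biopsies and cultures cannot be told apart.

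Ion channels are membrane proteins that open a pore for potassium, calcium, sodium or chloride, and they are best known for the electrical signals of nerve, muscle and heart. Fibroblasts do not fire action potentials, but their channels set the resting membrane potential, carry calcium signals and take part in proliferation and migration. Methylation of a CpG in a promoter often accompanies a silent gene, whereas the bodies of genes are commonly methylated whether or not the gene is silent. Gene expression was not analysed here, so the values are levels of methylation only.

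The methylation ratio is the share of reads at a CpG position and strand that kept a cytosine, given here in percent, and a difference between ages is given in percentage points as young minus old. It was taken within each animal and is reported as mean ± SD over the 6 animals. Per the study's methods, a site was listed at an unadjusted P below 0.05 in a paired test with at least 5 reads in every culture. The methods name no minimum difference, but the smallest mean difference on the list was 9.67 points, and 34 of the 14094 sites were under 10 points. A minimum of 10 points was therefore set here, and the test, run again on all tested positions, called 1.68% of them in either direction, 1.12% as more methylated in young and 0.567% as more methylated in old cultures. It called 82 of the 86 members, a count that the choice of members fixes. The other 4, among them sites in CACNA1G, GABRA5 and KCNQ1, were called once the ratios, which were deposited with 2 decimals, were recomputed from whole reads. The limma test, an alternative that moderates the spread of each site, called 85 of the 86 members and 1.95% of all positions. After Benjamini-Hochberg adjustment no tested position was called by either test, and the smallest adjusted P by the paired test among members was 0.889, with 0.470 over all positions. At an unadjusted P below 0.05 and with no minimum difference, the paired test passed 2.87% of positions.

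Reads over tested positions summed to between 25962640 and 28820145 in the young cultures and between 19007741 and 31643295 in the old cultures. Depth at a member was modest: mean coverage per culture had a median of 12 reads and ran from 6.08 to 28.7, with a median of 14.2 over all tested positions. Among the 31 member sites whose values are given culture by culture, the 95% Wilson interval of a single ratio was 41.7 points wide at the median, with a range of 12.9 to 65.2 points. These intervals cover counting error only. At least 10 reads in every culture were reached at 15 members, 14 of them more methylated in young cultures. The same requirement left 1.06% of positions called among the deeper ones tested, and their split by direction was not compared. Several of the 15 members, among them KCNK17, KCNH3 and RYR1, had an even read count in every culture. Overlapping mates may count there as separate reads. Over all tested positions the mean difference was 0.437 points, and unlisted positions with a mean ratio between 20 and 80% were 1.01 ± 1.89 points higher in young cultures, with 4 of 6 animals in that direction.

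Higher methylation in young cultures was found at 57 of the 86 member sites, in 34 genes, and higher methylation in old cultures at the other 29, in 24 genes. The share higher in young was 66.3%, and it was 66.3% over all listed sites and 67.6% over the 4414 listed sites with a promoter, exon or intron annotation. Differences at the young-higher sites had a median of 19.5 points (range 9.83 to 38.0), and those at the old-higher sites a median of 16.0 points (range 10.2 to 44.3). The median size over members was 17.9 points beside 17.8 points over the whole list, so the members were not set apart by the size of their differences. Among genes, 22 held young-higher sites only, 12 held old-higher sites only and 12 held both. The 5 genes with 4 or more listed sites, KCNQ1, KCNA6, CACNA1D, CACNA1E and CACNB4, carried 26 of the 86 sites, and 25 genes had a single one.

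**Figure D1:**
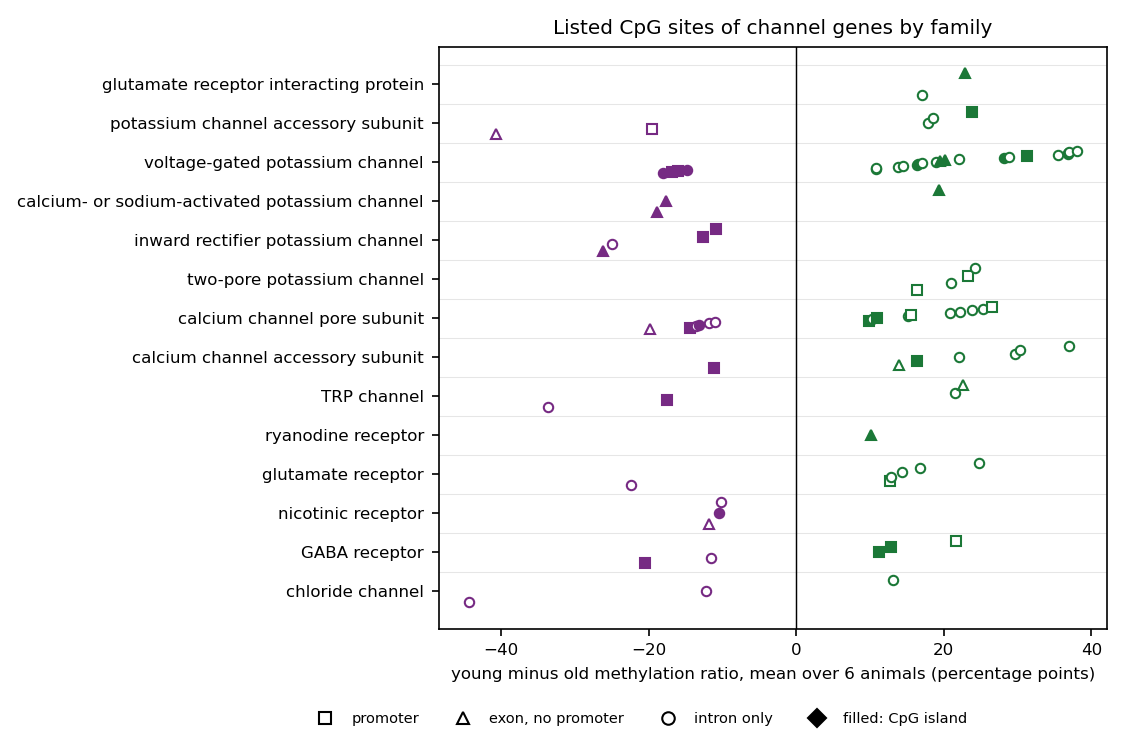
Each point is 1 of the 86 listed sites, placed by its mean young minus old difference in percentage points over 6 animals and grouped by channel family; squares lie in promoters, triangles in exons outside promoters and circles in introns only, with filled symbols in CpG islands. The inward rectifiers and nicotinic receptors lie wholly on the old-higher side, whereas 19 of 23 voltage-gated potassium channel sites lie on the young-higher side. Among those 19 are neighbouring sites of KCNA6 and of KCNH6 that can share reads, and 66.3% of all listed sites were higher in young cultures.

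The split by direction is given by family, where most families held few sites and differences between families were not tested. Potassium channels had 39 sites in 20 genes, 27 higher in young and 12 higher in old cultures. Voltage-gated calcium channels had 23 sites in 8 genes, 16 higher in young and 7 in old. Receptor channels for glutamate, acetylcholine and GABA had 14 sites in 10 genes, 8 higher in young and 6 in old. The 4 sites of inward rectifier potassium channels and the 3 of nicotinic receptors were all higher in old cultures, and the 4 sites of two-pore potassium channels were all higher in young ones. In each of these 3 families a pair of sites lay within 19 bases or fewer and can share reads. No listed site carried a symbol of a voltage-gated sodium channel pore gene or of an HCN pacemaker channel.

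The direction was shared by the animals in most cases, and the selection by a paired test favours this. All 6 animals moved the same way at 27 members (19 higher in young, 8 in old). At 53 members 5 animals did so, and at 6 members 4 did. Of all tested positions 14129 were called, and 6055 of these had all 6 animals in one direction (0.722% of all tested positions). That is a larger share of the called positions than the 27 are of the 86 members. Averaged over the 57 young-higher sites, the difference within an animal lay between 18.9 points in animal 5 and 23.4 points in animal 4. Over the 29 old-higher sites it lay between -20.4 points in animal 5 and -16.1 points in animal 2. No animal stood apart in either set of sites. The 6 young and the 6 old ratios did not overlap at 4 members, all higher in young cultures and located in KCNA6, CACNB4, KCNC4 and KCNK12. Such a gap was present at 1032 of all tested positions (0.123%). Members were selected for a difference between the ages and those positions were not, so the shares are not alike.

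The threshold itself was not a sharp edge. The member nearest to it on the inside was an intronic site of GABRA3, 11.5 points higher in old cultures with an SD of 10.9. Close to it on the outside, among unlisted positions within 100 bp of a member, was a KCNQ1 site at position 49554251 of chromosome 29 (bosTau8, minus strand), at 15.3 points with an SD of 16.5. Sites left outside could thus differ by more points than sites inside, with a larger spread between animals.

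Most of the listed channel sites were partly methylated in these fibroblasts. The mean ratio over the 12 cultures was between 20 and 80% at 54 members (62.8%), below 20% at 23 and above 80% at 9. Among all tested positions, whose median ratio was 2.92%, 22.0% were in that middle range, whereas among all listed sites 65.0% were. At the young-higher sites the median ratio was 49.5% in young and 22.7% in old cultures. At the old-higher sites it was 15.2% in young and 37.0% in old cultures. Sites near 0 and sites near full methylation were thus both present, with the extremes at RYR1 (5.08%) and at a KCNQ1 site (92.6%).

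Position within the gene went along with level. The 22 promoter sites (from 2500 bp before to 1000 bp after a transcription start, in 14 genes) had a median ratio of 18.9%, and 15 of them lay in CpG islands. The 23 exon sites in 16 genes had a median of 21.9%, with 15 in islands, and the 53 intron sites in 31 genes had a median of 41.8%, with 7 in islands. Of all members, 10 sites were counted as both promoter and exon and 2 as both promoter and intron. In promoters 13 sites were higher in young and 9 in old cultures, in exons 12 and 11, and in introns 38 and 15. The share higher in young was therefore 59.1% in promoters, 52.2% in exons and 71.7% in introns, beside 67.3, 68.1 and 66.6% for all listed sites of the same classes.

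CpG islands, stretches dense in CpG that often sit at promoters and are usually unmethylated, held 29 members. Of these 14 were higher in young and 15 in old cultures (48.3% higher in young). Outside islands 43 were higher in young and 14 in old (75.4%). For all listed sites with a gene annotation the shares higher in young were 69.0% of 1408 island sites and 66.9% of 3006 sites outside. These shares are counts over sites that partly share reads and animals, and they were not tested.

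**Figure D2:**
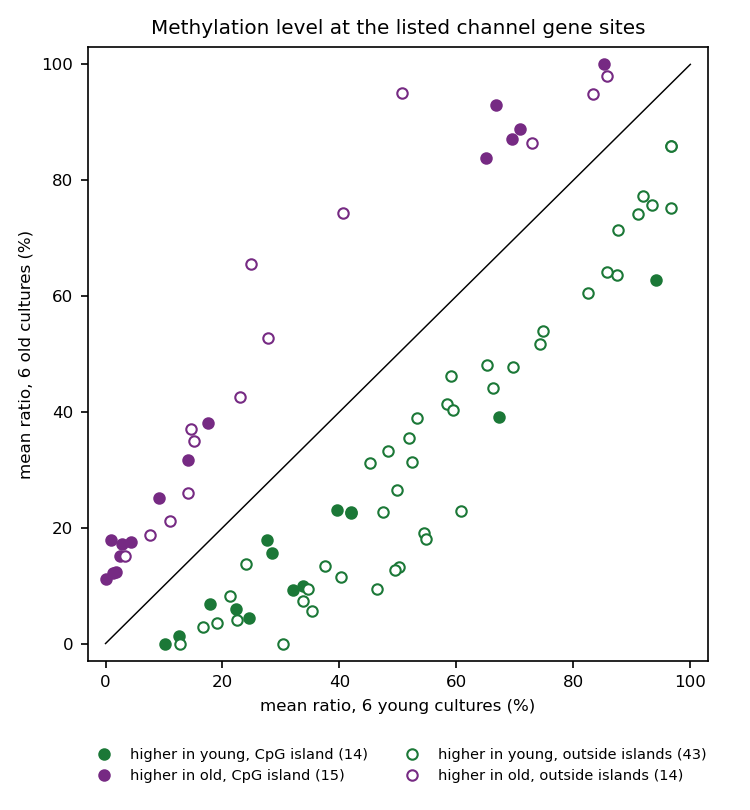
Each point is 1 of the 86 listed sites, with the mean methylation ratio in percent of the 6 young cultures on the horizontal axis and of the 6 old cultures on the vertical axis; the diagonal marks equal ratios and filled points lie in CpG islands. A group of old-higher island sites sits at the lower left, below 20% in young cultures, and the CLCN3 site, at 50.7% in young and 95% in old cultures, lies farthest from the diagonal.

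In the values that follow, the ratios of the cultures are always in the order of animals 1 to 6, positions are in bosTau8, and the strand is given as plus or minus. Values for each culture are given at the 5 sites per direction with the largest differences among those that every culture covered by 10 reads or more (1 per gene), at the largest site of each gene with 4 or more sites, and at the largest site per direction of genes listed in both. Only KCNF1 met the first criterion among old-higher sites.

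KCNA6, which encodes a delayed-rectifier potassium channel subunit, held 6 sites on chromosome 5, all intronic and all higher in young cultures by 28.8 to 38.0 points. No other gene among the members had as many young-higher differences of over 25 points. At position 105757073 (minus) the young ratios were 67, 43, 71, 64, 40 and 44% and the old ratios 30, 20, 30, 11, 0 and 17%. Every young culture was above every old culture, with means of 54.8 ± 13.9% and 18.0 ± 11.5% and a paired difference of 36.8 ± 10.7 points. The largest mean difference in the gene, 38.0 ± 22.6 points, was at position 105757039 (plus), where the young ratios were 17, 64, 60, 71, 86 and 67% and the old ratios 18, 25, 17, 17, 22 and 38%. Animal 1 did not take part in that difference, and its young culture lay within the old range.

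Of the KCNA6 sites, 5 lay within 36 bases of each other and rest on overlapping reads, so they are not separate measurements of the gene. They include both strands of a pair of adjacent CpGs, at positions 105757072 to 105757075, with differences of 35.5, 36.8, 36.8 and 28.8 points in order of position. The sixth site, 105749346 (minus), opened the span of 7730 bp that held all of them and had 50.2 ± 14.5% in young and 13.2 ± 7.94% in old cultures. The only unlisted position within 100 bp of the group of 5 was also higher in young cultures, at 15.5 ± 14.0% beside 1.67 ± 4.08%. At the sixth site the 2 unlisted neighbours averaged 15.8% in young and 5.33% in old cultures.

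KCNC4, which encodes a fast voltage-gated potassium channel subunit, held sites of opposite direction within 6981 bp of chromosome 3. At position 33326839 (plus), in the promoter and in a CpG island, the young ratios were 100, 100, 85, 100, 88 and 92% and the old ratios 71, 55, 75, 53, 56 and 67%. All young cultures were above all old ones, and the means were 94.2 ± 6.77% and 62.8 ± 9.35% (difference 31.3 ± 13.7 points). At position 33324759 (minus), annotated as promoter and exon and also in an island, the direction was opposite. There the young ratios were 0, 18, 14, 14, 9 and 0% and the old ratios 12, 40, 20, 22, 43 and 14%, a difference of 16.0 ± 10.4 points higher in old cultures with overlap between the ages. The remaining KCNC4 site, in an intron at 33319859, was 17.0 ± 10.7 points higher in young cultures.

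The surroundings of the KCNC4 promoter site were little methylated. Between the outermost KCNC4 sites, 69 unlisted positions had a median ratio of 0.833%, and their mean differed by 0.589 ± 1.35 points between the ages. The 2 unlisted positions within 100 bp of the promoter site were at 26.3 and 9.33% at the young age and at 19.2 and 5.00% at the old age. The nearly full methylation at 33326839, which ends the interval, was thus not shared by most of the interval. A few positions within it were highly methylated. Those 4604 and 4605 bp from the first KCNC4 site were at 85.0 and 82.7% in young and 78.8 and 73.3% in old cultures.

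**Figure D3:**
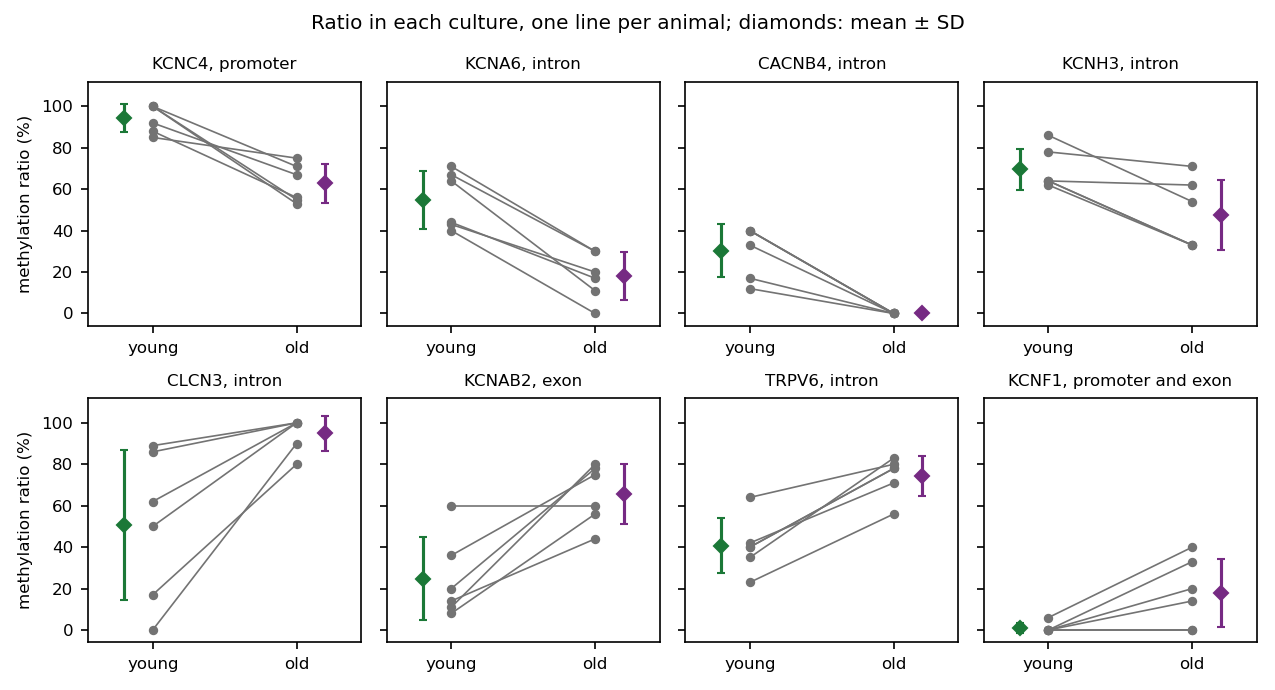
Methylation ratio in percent of the young and old culture of each animal (grey points joined by a line) at 8 sites, with the mean ± SD of the 6 cultures of each age as diamonds. In the KCNC4, KCNA6 and CACNB4 panels no old culture reaches the lowest young culture, whereas in the CLCN3 panel the young cultures spread from 0 to 89%.

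Other members of the voltage-gated potassium channel family with a single direction were higher in young cultures, except KCNF1. KCNH3, a brain-enriched member of the ether-a-go-go family, was intronic at position 30456901 (plus) of chromosome 5, with young ratios of 86, 62, 64, 64, 64 and 78% and old ratios of 54, 33, 33, 33, 62 and 71%. All 6 animals were higher at the young age, by 22.0 ± 13.7 points, although the old cultures of animals 5 and 6 lay within the young range. With the strands merged the difference was 14.1 points. Of its relatives, KCNH2, whose channel repolarises the heart, was 14.5 ± 9.73 points higher in young cultures at an intronic site of chromosome 4 (91.8 ± 9.17% beside 77.3 ± 13.2%). KCNH6 had 2 exonic island sites within 27 bases on chromosome 19, higher in young by 20.2 ± 17.3 and 19.5 ± 17.3 points. KCNC1, like KCNC4 a subunit of fast repolarising channels, was nearly fully methylated, with 96.7 ± 5.32% in young and 85.8 ± 8.23% in old cultures. KCND3, which carries a transient current, was 19.0 ± 12.7 points higher in young cultures and in all 6 animals.

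KCNF1 encodes an electrically silent subunit that modifies other potassium channels. Its site at position 86761055 (minus) of chromosome 11, in the promoter, an exon and a CpG island, had young ratios of 0, 6, 0, 0, 0 and 0% and old ratios of 0, 40, 14, 0, 33 and 20%. The site was near 0 in every young culture and in the old cultures of animals 1 and 4, so the difference of 16.8 ± 15.1 points higher in old came from the other 4 animals. The opposite strand of the same CpG differed by 3.17 points in the other direction, and with the strands merged the difference was -6.93 points.

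KCNQ1, whose channel carries a slow repolarising current in heart and moves potassium across epithelia, lies in an imprinted domain of mammalian genomes and held 7 intronic sites on chromosome 29. They were spread over 267903 bp, with 5 higher in young and 2 higher in old cultures. The largest, at 49452969 (plus) in a CpG island, had young ratios of 40, 82, 50, 89, 88 and 55% and old ratios of 27, 67, 29, 12, 50 and 50%. Every animal was higher at the young age, but the groups overlapped and the difference of 28.2 ± 26.4 points had an SD close to its mean. It was 16.4 points with the strands merged and 18.4 points without animal 4. The largest of the opposite direction, at 49698962 (minus), had young ratios of 78, 62, 50, 75, 90 and 70% and old ratios of 100, 100, 71, 100, 80 and 82%, higher in old by 18.0 ± 16.1 points in 5 of 6 animals.

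The other KCNQ1 sites ranged from low to full methylation. At 49539836 the ratio was 16.7 ± 6.74% in young and 2.83 ± 4.40% in old cultures, a difference in all 6 animals of 13.8 ± 5.53 points, the smallest SD among the 7 sites. At 49720871 all 6 old cultures were at 100% (74 reads in all) and the young cultures averaged 85.2 ± 8.98%. The read count there was even in every culture, so overlapping mates may count as separate reads. The sites at 49554236, 49506991 and 49720121 were higher in young cultures by 16.5, 16.3 and 10.8 points. Between the outermost sites 131 unlisted positions were tested, with a median ratio of 79.9%, and their mean was 68.1 ± 2.78% in young and 68.6 ± 1.04% in old cultures. Of these positions 62 were higher in young and 68 in old cultures, and 25 differed by at least 10 points without being listed. The interval as a whole therefore showed no difference beyond the spread between animals (-0.550 ± 3.38 points).

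**Figure D4:**
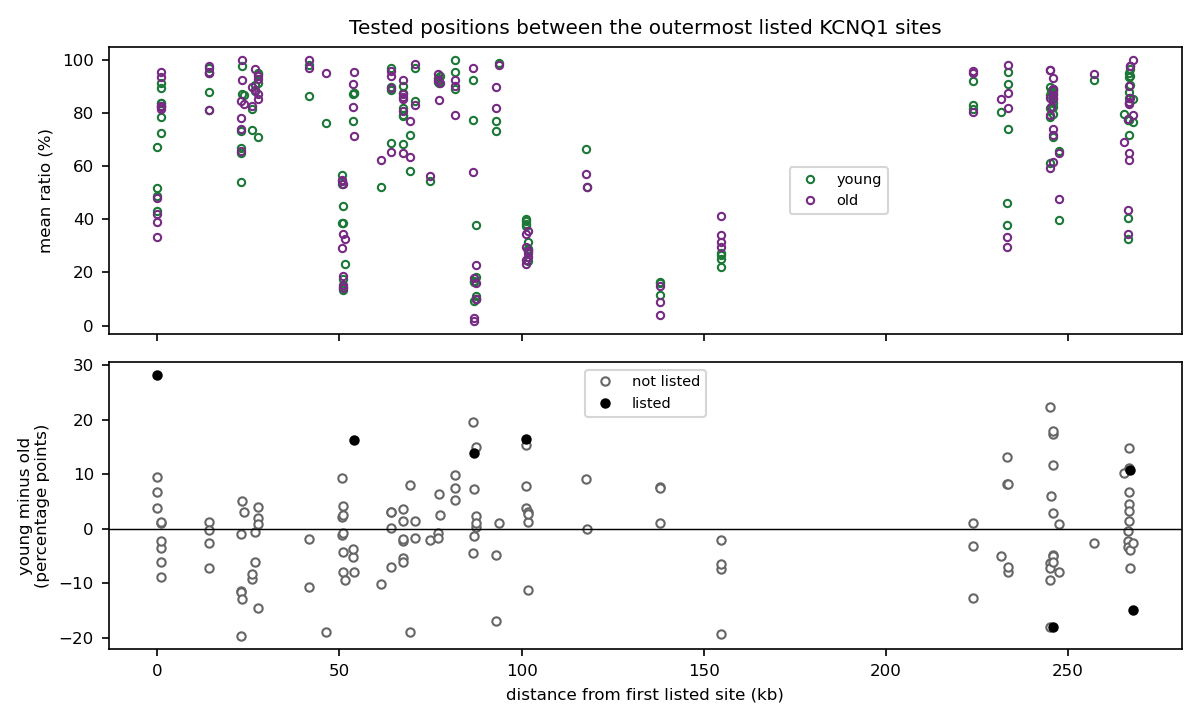
Tested positions between the outermost listed KCNQ1 sites, by distance from the first in kilobases. The upper panel gives the mean methylation ratio in percent of the 6 young and 6 old cultures, and the lower panel the mean young minus old difference in percentage points, with listed sites filled; the 7 listed sites lie among 131 unlisted ones that scatter to either side of 0.

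The calcium-activated potassium channel KCNMA1, whose large conductance links calcium signals to the membrane potential, had 3 sites of opposite direction within 69 bases of an exonic CpG island on chromosome 28. At position 32827108 (plus) the young ratios were 78, 75, 64, 73, 50 and 50% and the old ratios 89, 90, 86, 67, 89 and 82%, higher in old by 18.8 ± 16.0 points. The site 9 bases before it moved alike, by 17.7 ± 10.6 points in all 6 animals. At 32827167 (plus) the young ratios were 44, 75, 18, 27, 50 and 38% and the old ratios 33, 30, 0, 11, 44 and 18%, higher in young by 19.3 ± 13.6 points, again in all 6 animals. All 3 sites had 55 reads in total at each age. The 2 unlisted positions between them averaged 82.1% in young and 78.0% in old cultures.

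All 4 sites of inward rectifier channels, which hold cells near the potassium equilibrium potential, were more methylated in old cultures. KCNJ9, a subunit gated by G proteins, had 2 promoter sites within 4 bases of a CpG island of chromosome 3, at 2.50 ± 3.89 and 1.33 ± 3.27% in young and 15.2 ± 6.85 and 12.2 ± 9.62% in old cultures. At the first of them all 6 animals were higher at the old age, although no old culture exceeded 25%. The 25 unlisted positions within 100 bp averaged 8.30% in young and 7.91% in old cultures. KCNJ16, which pairs with other subunits in kidney and glia, was at 66.8 ± 20.03% in young and 93.0 ± 11.1% in old cultures at an exonic site of chromosome 19. KCNJ12, a strong rectifier of muscle, was at 27.8 ± 16.5 and 52.8 ± 29.9% at an intronic site of the same chromosome.

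The 4 sites of two-pore channels, which carry background potassium currents, were all more methylated in young cultures. KCNK17 had the deepest coverage of any member, with 188 reads over the young and 156 over the old cultures at an intronic site of chromosome 23, and its ratio was 52.3 ± 14.1% in young and 31.3 ± 11.8% in old cultures. The difference of 21.0 ± 10.3 points was present in all 6 animals. The read count at this KCNK17 site was even in every culture, so overlapping mates may count as separate reads. KCNK12 had 2 promoter sites within 8 bases on chromosome 11, and at position 29809997 no old culture, at 20 to 33%, reached the lowest young culture, at 37%. The difference there was 23.3 ± 12.4 points, and 16.3 ± 14.9 points at the neighbouring site. KCNK5 was 24.2 ± 19.7 points higher in young cultures at an intronic site of chromosome 23.

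Among the accessory subunits of potassium channels, KCNAB2 had the second largest difference of all members. It encodes a cytoplasmic beta subunit, and its exonic site at position 48084756 (plus) of chromosome 16 was chosen for display after its values were seen. The young ratios were 14, 60, 8, 36, 20 and 11% and the old ratios 44, 60, 56, 75, 78 and 80%. The old cultures were higher by 40.7 ± 24.2 points, with no change in animal 2, and no other position was tested within 100 bp. KCNIP1 and KCNIP3, calcium-binding partners of transient potassium channels, were higher in young cultures by 18.5 ± 9.81 and 17.8 ± 14.6 points at intronic sites.

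KCNE1L (now named KCNE5), a single-pass subunit that restrains KCNQ1-type channels, is on the X chromosome and had sites of opposite direction within 99 bases of its promoter and exon. At 62456771 (minus) the young ratios were 14, 27, 25, 27, 12 and 33% and the old ratios 27, 50, 67, 38, 48 and 25%, higher in old by 19.5 ± 18.2 points in 5 of 6 animals. At 62456869 (plus) the young ratios were 50, 17, 12, 50, 14 and 60% and the old ratios 0, 0, 0, 15, 25 and 20%, higher in young by 23.8 ± 22.2 points in 5 of 6 animals. The 17 unlisted positions around them averaged 22.9% in young and 22.0% in old cultures, so the pair did not mark a shift of the wider promoter. In the cells of a heifer 1 copy of most X-linked genes is inactive and is commonly methylated at its island.

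Voltage-gated calcium channels open on depolarisation and let in the calcium that triggers contraction, secretion and gene regulation. Of the 16 sites in 5 pore subunit genes, 10 were higher in young and 6 in old cultures. CACNA1D, an L-type subunit, had 5 intronic sites on chromosome 22, of which 3 lay within 23 bases of each other. One of these, at 47795746 (plus), had young ratios of 73, 65, 60, 56, 75 and 69% and old ratios of 33, 40, 42, 38, 62 and 50%. All 6 animals were higher at the young age, by 22.2 ± 9.54 points, and the groups overlapped through the old culture of animal 5. The largest difference, 25.3 ± 14.1 points at 47795732 (plus), came from young ratios of 36, 18, 50, 33, 42 and 29% and old ratios of 0, 0, 8, 0, 38 and 10%.

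The opposite strand of CACNA1D did not follow. At 47795746 the minus-strand position of the same CpG was at 63.0 ± 19.2% in young and 65.5 ± 10.7% in old cultures, and with the strands merged the difference fell to 11.1 points. At 47795755, which was higher in young by 15.2 ± 9.99 points, the minus strand differed by -4.83 points. Further along the gene, 47863103 was 20.8 ± 16.2 points higher in young cultures. At 47764366 (plus) the young ratios were 12, 0, 17, 13, 0 and 4% and the old ratios 29, 20, 12, 17, 14 and 20%, which made it the only CACNA1D site higher in old cultures, by 11 ± 9.55 points.

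CACNA1E, an R-type subunit, had 3 sites within 51 bases of each other in its promoter and an exon on chromosome 16, all higher in young cultures. At the largest, 64095964 (plus), the young ratios were 43, 36, 38, 18, 38 and 30% and the old ratios 15, 0, 9, 20, 0 and 0%. The difference was 26.5 ± 14.5 points, and only the pair of animal 4 ran the other way. The 2 others differed by 15.5 ± 10.2 and 11 ± 8.58 points. The opposite strand of the CpG with 15.5 points was not listed but had the same direction. It was at 14.3 ± 13.5% in young and 3.33 ± 6.06% in old cultures. An intronic site at 64189069 (minus) was higher in old cultures by 13.5 ± 9.09 points, with young ratios of 70, 83, 67, 67, 76 and 75% and old ratios of 67, 100, 83, 83, 100 and 86%.

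CACNA1G, a T-type subunit that opens at low voltage, lay in a largely unmethylated interval of chromosome 19, where 57 unlisted positions between its sites averaged 1.72%. Its promoter site at 36793117 (minus) had young ratios of 0, 0, 0, 0, 17 and 0% and old ratios of 20, 25, 17, 10, 14 and 17%. It was higher in old cultures by 14.3 ± 9.79 points in 5 of 6 animals, on 49 and 47 reads in all. The 9 unlisted positions within 100 bp were at 0.611% in young and 0.481% in old cultures, so the listed position was alone in its difference. The other CACNA1G sites were higher in young cultures. At 36790395 (plus) the young ratios were 43, 27, 9, 25, 30 and 10% and the old ratios 36, 20, 0, 0, 17 and 9%, a difference of 10.3 ± 8.17 points. At 36794783, in the promoter, the difference was 9.83 ± 9.06 points, and 7 of 9 unlisted neighbours had the same direction.

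CACNA1B, the N-type subunit of nerve terminals, had intronic sites of opposite direction on chromosome 11. At 105380557 (minus) the young ratios were 83, 100, 67, 100, 75 and 100% and the old ratios 55, 100, 60, 67, 56 and 44%, higher in young by 23.8 ± 20.1 points. At 105295832 (plus), in a CpG island, the young ratios were 0, 9, 17, 0, 0 and 0% and the old ratios 15, 20, 12, 11, 17 and 30%, higher in old by 13.2 ± 11.3 points. The groups overlapped at both. The strand opposite to 105380557 differed by -5.50 points, and with the strands merged the difference there was 7.46 points, under the minimum of 10 points. CACNA1A, the P/Q-type subunit, had 2 sites on chromosome 7 that were higher in old cultures in all 6 animals, by 19.8 ± 12.2 points in an exon and 11.8 ± 10.6 points in an intron.

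The accessory subunits of calcium channels had 7 sites, 6 of them higher in young cultures. CACNB4, a cytoplasmic beta subunit that brings the pore to the membrane, held 4 intronic sites on chromosome 2. At 44329481 (minus) the young ratios were 40, 17, 40, 12, 40 and 33%, and all 6 old ratios were 0. The old cultures had 0 methylated of 72 reads, which allows a ratio of up to 4.17%. The read count was even in every old culture, and overlapping mates count as separate reads, so that limit would be higher with mates counted once. The difference was 30.3 ± 12.7 points with no overlap. The plus strand of the same CpG differed by 29.7 ± 18.7 points, so here both strands moved together. The only unlisted position within 100 bp was at 4.83 ± 7.81% in young and 2.50 ± 6.12% in old cultures. There only 1 of 6 animals was higher at the young age.

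The largest CACNB4 difference, 37.0 ± 31.6 points at 44329492 (minus), rested on the lowest coverage of any member, 37 reads in young and 36 in old cultures. Its young ratios were 80, 17, 60, 50, 60 and 12% and its old ratios 0, 0, 40, 0, 0 and 17%, with animal 6 in the other direction. The fourth site, 44257143, lay at the other end of the 72350 bp that held them and was 22.0 ± 19.6 points higher in young cultures.

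CACNG6 and CACNG1 encode gamma subunits. In CACNG6, on chromosome 18, the promoter site at 62107093 (minus) had a ratio of 0 in all 6 young cultures and old ratios of 15, 20, 0, 12, 20 and 0%. The young cultures had 0 methylated of 45 reads, which allows up to 6.67%, so the old cultures, at 11.2 ± 9.17%, were not far above what such a count leaves possible. The exonic site at 62120546 (minus) was higher in young by 14.0 ± 9.86 points, with young ratios of 23, 71, 20, 67, 40 and 50% and old ratios of 25, 60, 0, 57, 14 and 31%. There the animals differed more from each other than the ages did. The means were 45.2 ± 21.5% in young and 31.2 ± 23.7% in old cultures, so the difference was small beside the spread between animals of 1 age. Within animals, 5 of 6 were higher at the young age. CACNG1, a skeletal muscle subunit, was 16.3 ± 14.6 points higher in young cultures at a promoter site.

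RYR1, the calcium release channel of skeletal muscle, had 1 exonic island site on chromosome 18 with low methylation. It was at 10.2 ± 6.88% in young cultures, and the old cultures had 0 methylated of 80 reads, which allows up to 3.75%. The read count was even in every culture, and overlapping mates count as separate reads, so with mates counted once there would be 40 reads and a limit of 7.5%. The opposite strand differed by -5.67 points. The 16 unlisted positions within 100 bp averaged 8.79% at the young and 5.80% at the old age, and 5 of 6 animals were higher when young.

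Glutamate-gated channels carry fast excitation between neurons. GRIK3, a kainate receptor subunit, had sites of opposite direction on chromosome 3. At 109503200 (plus) the young ratios were 12, 30, 0, 0, 22 and 24% and the old ratios 24, 36, 43, 25, 50 and 44%, higher in old in all 6 animals by 22.3 ± 13.0 points. The opposite strand of this CpG was also higher in old cultures, by a difference of -11.7 points. At 109426610 (plus) the young ratios were 100, 85, 89, 80, 100 and 92% and the old ratios 86, 67, 50, 67, 75 and 100%, higher in young by 16.8 ± 15.5 points. Here the opposite strand differed by -11.2 points, against the listed strand, and with the strands merged 1.78 points remained.

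The other glutamate receptor sites were higher in young cultures. GRIK4, also a kainate subunit, had intronic sites within 11 bases on chromosome 15, with differences of 24.8 ± 17.7 and 14.3 ± 12.5 points. GRIK2 had a promoter site on chromosome 9 at 12.7 ± 11.5% in young cultures and 0 of 116 reads in old cultures, which allows up to 2.59%, and its 6 unlisted neighbours had the same direction on average (11.3 beside 2.86%). GRIA1, an AMPA receptor subunit, differed by 12.8 ± 10.7 points at an intronic site. GRID2IP, the interacting protein, was higher in young cultures at an exonic island site by 22.8 ± 17.5 points in all 6 animals and at an intronic site by 17.0 ± 15.2 points.

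The 3 nicotinic acetylcholine receptor sites were all low and higher in old cultures. CHRNA2, a neuronal alpha subunit, was at 11 ± 9.88% in young and 21.2 ± 6.52% in old cultures at an intronic site of chromosome 8, and at 3.33 ± 5.32 and 15.2 ± 11.2% at an exonic site, both within 19 bases. CHRNE, the epsilon subunit of the adult muscle endplate, was at 1.83 ± 4.49 and 12.3 ± 8.48% at an intronic island site of chromosome 19 that is also annotated to the promoter of a neighbouring open reading frame. In CHRNA2 the 5 unlisted positions within 100 bp were higher in old cultures as well, at 15.3% in young and 21.1% in old cultures. In CHRNE the 7 unlisted positions were at 5.33% in young and 3.02% in old cultures, against the listed site.

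Of the GABA receptor subunits, which form chloride channels of inhibitory synapses, GABRQ on the X chromosome had promoter island sites of opposite direction within 434 bases. At 35300087 (plus) the young ratios were 20, 22, 18, 10, 18 and 17% and the old ratios 40, 44, 11, 43, 40 and 50%. Higher ratios were found in 5 of the 6 old cultures, by 20.5 ± 14.7 points on average, and animal 3 was the exception. At 35299654 (plus) the young ratios were 43, 40, 30, 33, 17 and 8% and the old ratios 20, 29, 17, 11, 17 and 0%, higher in young by 12.8 ± 8.70 points. The unlisted positions within 100 bp of each GABRQ site leaned the same way as the site, by -5.69 ± 10.1 and 3.68 ± 10.3 points, both within the spread between animals.

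The remaining GABA receptor sites were single ones. GABRR2, a rho subunit known from retina, was 21.7 ± 19.8 points higher in young cultures at a promoter site that the list also assigns to RRAGD. GABRA5 was 11.2 ± 10.9 points higher in young at a promoter island site of chromosome 21, among 33 unlisted neighbours at 1.90% in young and 1.89% in old cultures. GABRA3 on the X chromosome was the member nearest the threshold, as given above.

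TRP channels are cation channels that respond to lipids, heat and store depletion. TRPV6, a calcium uptake channel of epithelia, had an intronic site at position 107004569 (plus) of chromosome 4 that was chosen for display after its values were seen. The young ratios were 23, 35, 64, 40, 40 and 42% and the old ratios 56, 83, 80, 78, 78 and 71%. The old cultures were higher in all 6 animals by 33.7 ± 10.7 points, on 71 reads in young and 52 in old cultures. The groups overlapped only where the young culture of animal 3 passed the old culture of animal 1. The 3 unlisted positions within 100 bp averaged 40.2% in young and 44.0% in old cultures. Their difference was -3.83 ± 18.6 points, with 3 of 6 animals higher at the old age. TRPV3, a warmth-sensing channel of skin, was at 96.7 ± 8.17% in young and 75.2 ± 9.99% in old cultures, and TRPC2 at 74.3 ± 13.9 and 51.7 ± 17.5%.

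CLCN3, a chloride and proton exchanger of endosomes, had the largest difference of any member, and it too was chosen for display after its values were seen. At the intronic position 1493823 (plus) of chromosome 8 the young ratios were 0, 86, 89, 50, 17 and 62% and the old ratios 90, 100, 100, 100, 80 and 100%. The old cultures were all at 80% or above, while the young cultures covered nearly the whole scale, so the difference of 44.3 ± 30.1 points came mostly from animals 1, 4 and 5. No unlisted position was tested within 100 bp. The CLCN3 site had 82 reads over the young and 62 over the old cultures. Its read count was even in every culture, so overlapping mates may count as separate reads. ANO1, a calcium-activated chloride channel, had intronic sites of opposite direction on chromosome 29. At 47994752 (minus) the young ratios were 91, 88, 90, 83, 80 and 83% and the old ratios 100, 100, 88, 100, 100 and 100%, higher in old by 12.2 ± 7.99 points in 5 of 6 animals. At 48002357 (minus) the young ratios were 14, 20, 22, 10, 20 and 42% and the old ratios 20, 0, 9, 0, 8 and 12%, higher in young by 13.2 ± 11.9 points.

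Positions next to a listed site were not used in choosing it, although the neighbours described here are by construction those that missed the list. Grouped at distances of up to 100 bp, the 86 sites formed 68 loci, of which 11 held several sites (29 sites in all), and 9 of these 11 had a single direction, KCNE1L and KCNMA1 being the exceptions. Of 42 young-higher loci, 37 had unlisted tested positions within 100 bp (205 in all), and at 33 of them (89.2%) the average of those positions was also higher in young cultures. The median neighbour difference was 4.42 points, with a range of -8.00 to 15.2 points. Of 24 old-higher loci, 18 had such positions (134 in all), and at 10 (55.6%) their average was also higher in old cultures, with a median of -1.90 points (range -7.75 to 8.56). For the other listed loci the shares were 77.7% of 5926 young-higher and 65.4% of 3423 old-higher loci. These shares describe single positions and short reads that may share molecules with the listed site, and they were not tested.

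Opposite strands of a CpG are given here on their own, but they are not separate from the neighbours above. Unlisted opposite strands lie within 100 bp and are largely counted there already. At KCNH2 and at KCNC4 33319859 the opposite strand was the only neighbour. For 24 member sites the other strand was tested and not listed, and at 16 of them it differed in the same direction. The listed strand differed by a median of 16.9 points and the other by 3.83 points in the direction of the listed one, with a range of -20.5 to 15.8 points. Among 4522 other listed sites with such a partner, 65.6% had the same direction and the median was 2.83 points. At KCNH6, for example, the strand opposite to 48505180 differed by -20.5 points beside a listed difference of 20.2 points, whereas at CACNB4 and KCNA6 both strands were listed.

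**Figure D5:**
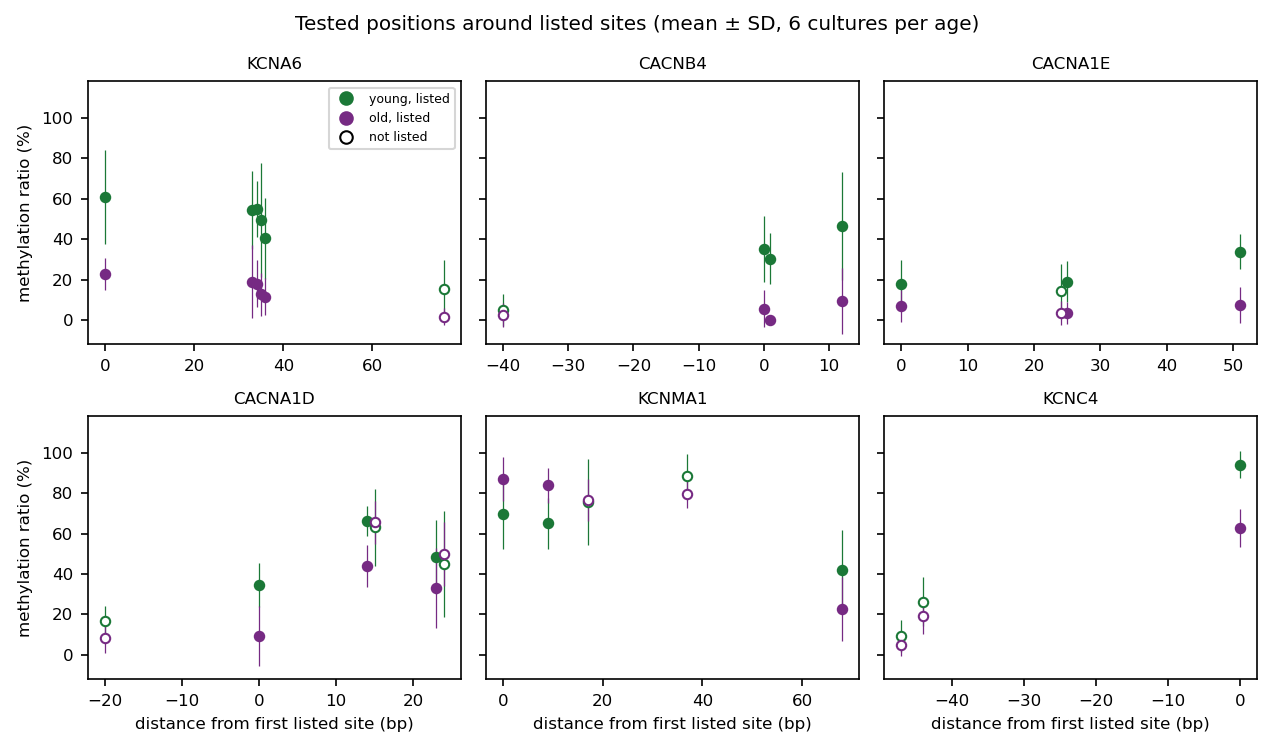
Mean methylation ratio in percent with SD over the 6 young and 6 old cultures at tested positions around 6 loci, by distance in bases from the first listed site of the panel (for KCNC4, from the promoter site); filled points are listed and open points are not. In KCNA6, CACNB4 and CACNA1E the mean at every position shown is higher in young cultures, whereas in KCNMA1 the listed sites cross over within 69 bases. At the unlisted CACNB4 position only 1 of 6 animals was higher at the young age.

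Channel genes outside the symbols given above were looked up in the same list and showed 35 sites in 18 genes, 25 higher in young and 10 in old cultures. ITPR1, the calcium release channel of the endoplasmic reticulum, held 9 intronic sites within chromosome 22, all higher in young cultures. Among them was the largest difference of this set, at position 21639676 (72.3 ± 24.6% in young and 17.8 ± 10.9% in old cultures). All of them but 21640355 lay between 21639649 and 21639727. They include both strands of some CpGs and can share reads, so they are not separate measurements of the gene. The relatives of ITPR1 were higher in old cultures, ITPR2 by a difference of -10.3 points at 1 site and ITPR3 by -21.5 and -15.2 points at 2 sites. The epithelial sodium channel subunits SCNN1A and SCNN1B were higher in young cultures by 26.2 ± 19.1 and 28.3 ± 19.5 points, and the ATP-gated P2RX2 had 2 exonic sites higher in young by 21.2 ± 12.9 and 12.3 ± 7.23 points. TMC2, a mechanotransduction channel gene, had 3 exonic sites higher in young, the largest by 45 ± 22.9 points. The water channel AQP1 was higher in old cultures, with a difference of -22.3 ± 12.8 points. AQPEP, with 3 sites, entered by its letters only and encodes an aminopeptidase.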

How the data were processed

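RRBS libraries of 6 young and 6 old dermal fibroblast cultures were used, and no culture was left out. Per the labels and the study's methods, the authors trimmed reads with Trim Galore 0.3.7 after FastQC 0.11.1 and aligned them with Bismark 0.13.1 to bosTau8, with base calls by CASAVA, and kept uniquely mapped reads. Overlapping mates were counted as separate reads, so some molecules count more than once. The deposited methylation ratio is a fraction, C/(C + T), given with 2 decimals and printed here in percent. The deposited coverage is a count of reads at each position and strand, with no normalization and at least 5 in every culture. The authors' own difference and p-value columns hold their comparison of the ages and were not used, beyond membership of their list.

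Positions are counted from 1. Members and gene lists were chosen with earlier results of these data known. Young minus old differences were recomputed within each animal at all 838705 positions, with the paired Student test of the study's methods at an unadjusted P below 0.05, and a mean difference of at least 10 points set here. Pairing comes from the design, since same-numbered cultures come from the same heifer. Alternatives were limma 3.58.1 in R 4.3.3, a quasi-binomial model, an exact sign-flip permutation test, an unpaired test, other coverage and difference minimums, merged strands and leaving out each animal, the X chromosome or positions with even coverage. Other steps used Python 3.11.15, pandas 2.3.3, numpy 2.4.6 and scipy 1.17.1, and each test was tried on simulated data first. Values for each culture were given at sites chosen by the rule stated in the results, and at the CLCN3, KCNAB2 and TRPV6 sites, chosen afterwards. Gene symbols were matched to a RefSeq table (45 by symbol and 1, KCNE1L, by synonym), whose coordinates, from another assembly, were not used. Of the members, 1 gene is counted in the totals and is not reported here.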

Additional observations from a re-analysis of the deposited data

Results flagged for a closer look

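Among 62 groups of 6 cultures at the member sites given culture by culture, 6 (9.68%) held a culture whose gap to its nearest neighbour was a large part of the group's range by Dixon's criterion. Chance alone flags about 1 in 20 groups, and groups with many ratios at 0 or 100% are easily flagged. In 3 of them the other 5 cultures were all at the end of the scale: the young culture of animal 5 was at 17% and the others at 0 in CACNA1G (36793117), the young culture of animal 2 was at 6% and the others at 0 in KCNF1 (86761055), and the old culture of animal 3 was at 88% and the others at 100% in ANO1 (47994752). In the other 3, the old culture of animal 5 was at 38% in CACNA1D (47795732), where the next was at 10%. The old culture of animal 3 was at 11% in GABRQ (35300087), where the next was at 40%. The old culture of animal 4 was at 67% in KCNMA1 (32827108), where the next was at 82%.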

How the results depend on the processing

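Of the 86 sites, the paired test called 82 (54 higher in young, 28 in old). The count stayed within 1.5 times of this with no minimum difference (83), limma (85), ratios from whole reads (86), merged strands (60), positions with an even read count in every culture left out (64) and the X chromosome left out (77). Without the pairing by animal (no replicate block) it was 64, with 40 and 24. At least 10 reads in every culture left 15 (14 and 1), and at least 20 reads left 1 (1 and 0). A minimum difference of 25 points left 18 (13 and 5). The quasi-binomial model called 44 (31 and 13) and the exact sign-flip permutation test 27 (19 and 8), where the smallest exact P that 6 animals allow is 0.031. Benjamini-Hochberg adjustment over all positions left 0, with 0 and 0. Leaving out any of the 6 animals gave 47 to 55 sites (32 to 37 and 14 to 18), lowest without animal 2 for the total (47) and the old-higher sites (14) and without animal 4 for the young-higher sites (32). These were smaller samples, and the same sites had been selected with all 6 animals. Fewer than 10 reads in some culture at most members limits each single ratio.

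At the named sites no direction reversed in 258 alternative values, and 257 moved by less than the SD over animals. The exception was CACNA1D at 47795746, where merging strands gave 11.1 instead of 22.2 points. The SD hides other shifts of over 1.5 times on merging strands, from 16.8 to 1.78 points at GRIK3 109426610, from 23.8 to 7.46 at CACNA1B 105380557, from -16.8 to -6.93 at KCNF1, from 28.2 to 16.4 at KCNQ1 49452969 and from 22.0 to 14.1 at KCNH3. At that KCNQ1 site the median over animals was 18 points and the mean without animal 4 was 18.4 points. Every culture had an even count of reads at 19 members (22.1%, beside 14.6% of tested positions). They include the CLCN3, KCNH3 and KCNJ12 sites, CACNA1B 105380557 and KCNQ1 49452969, where overlapping mates may count as separate reads.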
